A study of Mus musculus with 24 samples.

Results

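Subcerebral neurons of the mouse cortex were compared with corticothalamic neurons at embryonic day 18 (E18). The comparison took the E18 subcerebral and the E18 corticothalamic column of the deposited expression table and kept every entry at 1 FPKM (sequenced fragments divided by transcript length and by library size) or more in either column. This left 13302 of the 32310 entries, 12228 of them at 1 FPKM or more in both columns, 464 only in subcerebral neurons and 610 only in corticothalamic neurons. Both groups were neurons of CD1 mice purified by fluorescence-activated cell sorting, with 2 libraries each (4 of the 24 libraries of the study). The other groups were sorted at embryonic days 15 and 16 (E15, E16) and postnatal day 1 (P1), or were callosal projection neurons. No genotype, transgene or treatment is named in the labels, and neither the sorting markers nor the number of animals per library is given in these labels. The table gives 1 value per stage and subtype, so the spread between the 2 libraries of a group is unknown and no E18 difference could be tested. Differences are given as log2(FPKM + 1) in subcerebral minus corticothalamic neurons, and a difference of 1 or more in size is called 2-fold. On this scale the change of low genes is understated.

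Subcerebral neurons sit in layer 5 and reach brainstem and spinal targets. Corticothalamic neurons sit mainly in layer 6 and project to the thalamus. The transcription factors Fezf2 and Bcl11b (Ctip2) are known for specifying subcerebral neurons, and Tbr1 and Sox5 for restraining that program in corticothalamic neurons. At E18 the first axons of both types have left the cortex and their targets are being innervated.

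The markers of the labelled types were checked first. Bcl11b stood at 110 FPKM in subcerebral, 36.7 FPKM in corticothalamic and 1.00 FPKM in callosal neurons at E18. Fam19a1, a small secreted chemokine-like protein, stood at 53.2 FPKM in subcerebral and 0.418 FPKM in corticothalamic neurons. Tle4, a Groucho-family co-repressor, stood at 11.6 FPKM in subcerebral and 192 FPKM in corticothalamic neurons, and Whrn, the scaffold protein whirlin, at 4.22 and 50.1 FPKM. All 4 markers were higher in the subtype they mark. The sorting markers are not given, so whether this check is independent of the sort is unknown. Fam19a1 and Tle4 were also among the 15 largest E18 differences in their direction. The lists that follow were chosen with earlier results of these data known. Of 22 subcerebral neuron genes, all compared, 13 were 2-fold or more higher in subcerebral neurons and 2 (Parm1 and Sulf1) lower, and the median difference was 1.28. Of 20 corticothalamic neuron genes 19 were compared, 15 were 2-fold or more lower in subcerebral neurons and 1 (Lmo3) higher, with a median of -2.92. Fezf2 and Foxp2 were chosen after their values were seen. Fezf2 stood at 152 FPKM in subcerebral and 82.2 FPKM in corticothalamic neurons, short of 2-fold. Foxp2, a forkhead factor of layer 6, stood at 6.74 FPKM in subcerebral and 39.3 FPKM in corticothalamic neurons.

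Most of the transcriptome was alike in the 2 columns. Of the 13302 entries 10889 (81.9%) lay within 1.5-fold, the median difference was -0.009, and the 5th and 95th percentiles were -0.84 and 0.87. Entries 2-fold or more higher in subcerebral neurons numbered 516 (3.88% of those compared), and 465 (3.5%) were 2-fold or more lower, together 981 (7.37%). Differences of 8-fold or more were seen for 31 entries higher and 32 lower. These shares are the background for every gene group below. At the lower limit of the comparison, Mlf1 (1.00 and 0.332 FPKM in subcerebral and corticothalamic neurons) and Rdh12 (1.00 and 0.211 FPKM) lay just inside, and AK083124 (0.768 and 0.998 FPKM) and Fam35a (0.998 and 0.845 FPKM) just outside. The summed FPKM of all entries was 402497 in subcerebral and 363225 in corticothalamic neurons, within the range of 355965 to 473871 over the 12 columns.

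**Figure D1:**
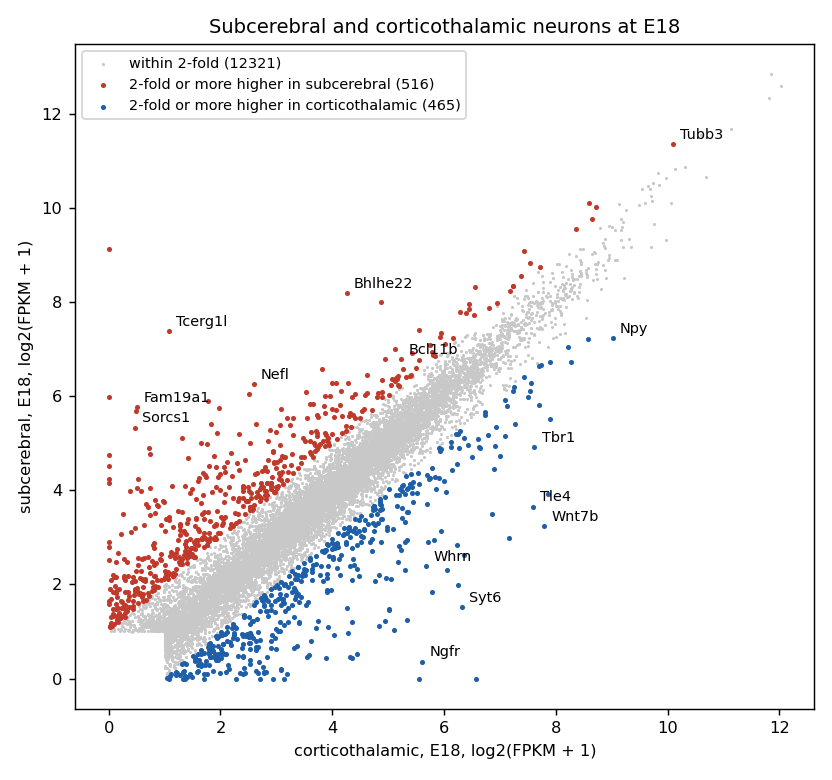
Each point is 1 of the 13302 entries compared, with log2(FPKM + 1) in corticothalamic neurons on the x axis and in subcerebral neurons on the y axis, both at E18. The 516 entries 2-fold or more higher in subcerebral neurons are red, the 465 lower are blue, and Tcerg1l and Fam19a1 on one side and Ngfr and Syt6 on the other lie farthest from the diagonal among the genes labelled.

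The protein-coding gene with the largest difference towards subcerebral neurons was Tcerg1l, which stood at 165 FPKM in subcerebral, 1.10 FPKM in corticothalamic and 1.88 FPKM in callosal neurons. Its FPKM was about 150.0 times higher in subcerebral than in corticothalamic neurons. Arhgdib stood at 50.7 FPKM in subcerebral and 0.410 FPKM in corticothalamic neurons. Sorcs1, a sorting receptor of the VPS10 family, stood at 39.2 and 0.389 FPKM. Both were below 1 FPKM in corticothalamic neurons, as was Fam19a1. Cntn6, a contactin of the cell surface, stood at 58.2 and 2.43 FPKM, a 23.9-fold difference. Pex5l, a partner of HCN channels, stood at 33.6 and 1.5 FPKM, a 22.5-fold difference. The transcription factors among these genes were Pou3f1, a POU-domain factor, at 52.5 and 2.91 FPKM (18-fold), and Bhlhe22, a basic helix-loop-helix repressor, at 291 and 18.2 FPKM (16-fold). Bhlhe22 was also abundant in callosal neurons at 112 FPKM, and Pou3f1 at 51.1 FPKM, so both were low only in corticothalamic neurons among the 3 columns of E18. Siah3, of the Siah ubiquitin ligase family, stood at 26.5 FPKM in subcerebral and 0.667 FPKM in corticothalamic neurons.

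Towards corticothalamic neurons the largest difference of a protein-coding gene was that of Ngfr, the p75 neurotrophin receptor, at 0.285 FPKM in subcerebral, 47.9 FPKM in corticothalamic and 0.282 FPKM in callosal neurons. Syt6, a synaptotagmin, stood at 1.86 FPKM in subcerebral and 78.7 FPKM in corticothalamic neurons, a 42.2-fold difference. Wnt7b, a secreted Wnt ligand, stood at 8.46 and 221 FPKM (26.2-fold). Wscd1 stood at 2.94 and 75.3 FPKM (25.6-fold). Ppp1r1b (DARPP-32), the dopamine-regulated phosphatase inhibitor, stood at 14.1 and 232 FPKM (16.5-fold), the highest corticothalamic level among these genes. Neurexophilins, secreted ligands of neurexins, were represented by 2 members: Nxph3 stood at 6.89 and 142 FPKM (20.6-fold) and Nxph4 at 2.59 and 54.0 FPKM (20.8-fold). Both neurexophilins were below 1 FPKM in callosal neurons. Tmem132b (1.37 and 39.5 FPKM), Cxxc5, a CXXC zinc-finger protein (1.04 and 33.6 FPKM), Gsg1l, an auxiliary subunit of AMPA receptors (0.431 and 20.7 FPKM), Timp3, an inhibitor of metalloproteinases (0.362 and 19.3 FPKM), and Cdh9, a classical cadherin (0.371 and 19.0 FPKM), completed the group.

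**Figure D2:**
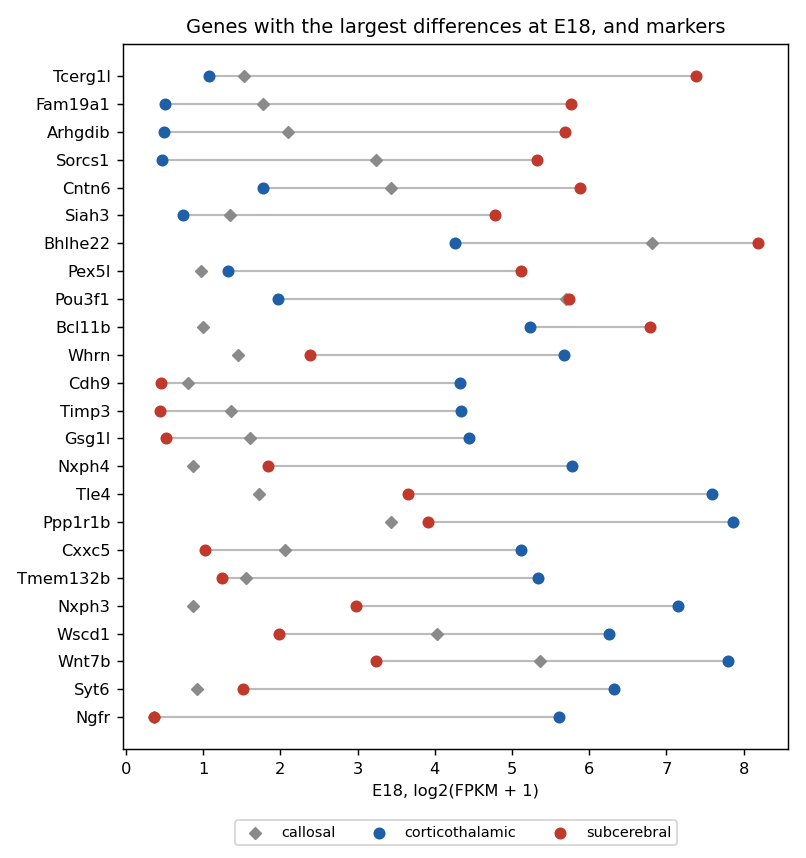
Levels at E18, as log2(FPKM + 1) on the x axis, of the protein-coding genes among the 15 largest differences in each direction and of the 4 markers, 1 gene per row, with 1 pooled value per point. Red points are subcerebral, blue corticothalamic and grey diamonds callosal neurons; the grey line joins the pair compared, and for Bhlhe22 and Pou3f1 the callosal point lies nearer to the subcerebral one.

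Promoter sequences are shown for the genes at either end of this ranking, Tcerg1l and Ngfr, and for Ermn, whose window holds a match to the octamer bound by POU-domain factors such as Pou3f1. The windows are 300 bases long, run from upstream to just after the annotated start, are taken from RefSeq on the build GRCm38.p6, and are written 5′ to 3′ on the gene's strand, with capitals marking the octamer. The Tcerg1l window is chr7:138397681-138397980 on the minus strand, with a GC content of 73% and 35 CpG dinucleotides. The Ermn window is chr2:58052815-58053114 on the minus strand, with a GC content of 47% and 5 CpG dinucleotides. The Ngfr window is chr11:95587649-95587948 on the minus strand, with a GC content of 71.7% and 23 CpG dinucleotides.
Tcerg1l: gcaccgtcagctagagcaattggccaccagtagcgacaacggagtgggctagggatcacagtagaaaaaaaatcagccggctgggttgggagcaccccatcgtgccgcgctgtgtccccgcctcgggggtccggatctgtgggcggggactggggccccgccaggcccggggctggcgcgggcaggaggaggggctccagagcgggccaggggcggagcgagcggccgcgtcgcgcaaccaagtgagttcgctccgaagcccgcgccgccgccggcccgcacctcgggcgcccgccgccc
Ermn: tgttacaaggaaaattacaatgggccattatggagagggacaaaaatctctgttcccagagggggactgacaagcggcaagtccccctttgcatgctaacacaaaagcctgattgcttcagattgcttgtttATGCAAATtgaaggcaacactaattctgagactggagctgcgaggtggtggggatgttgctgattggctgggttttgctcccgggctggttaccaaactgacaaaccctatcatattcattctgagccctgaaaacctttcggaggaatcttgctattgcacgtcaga
Ngfr: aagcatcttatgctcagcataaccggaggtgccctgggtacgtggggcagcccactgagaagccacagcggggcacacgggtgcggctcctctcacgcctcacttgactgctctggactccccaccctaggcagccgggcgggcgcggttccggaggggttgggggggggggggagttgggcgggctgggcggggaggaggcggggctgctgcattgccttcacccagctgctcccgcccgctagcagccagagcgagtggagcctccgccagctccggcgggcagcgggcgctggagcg

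Ermn, a cytoskeletal protein known from oligodendrocytes and chosen after its values were seen, stood at 17.9 FPKM in subcerebral and 0.441 FPKM in corticothalamic neurons. Motifs were searched on both strands and counted per gene, as a match in any of its windows. The octamer ATGCAAAT was found for 9 of 306 genes (2.94%) higher in subcerebral neurons and 9 of 281 (3.20%) of those lower. It was found for 128 of 8277 (1.55%) of those compared and 532 of 27025 (1.97%) of all genes with a window. The core T-box motif GGTGTGA, named for the family of Tbr1, was found for 7 of 306 (2.29%), 9 of 281 (3.20%), 327 of 8277 (3.95%) and 1244 of 27025 (4.6%) genes of the same sets. The counts describe letters in these windows and were not tested.

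Among 64 transcription factors of cortical neuron identity 60 were compared, 14 were 2-fold or more higher in subcerebral neurons and 11 lower, with a median difference of -0.04. After Bhlhe22 and Pou3f1 the largest differences towards subcerebral neurons were those of Tle3, a Groucho co-repressor, at 23.1 FPKM in subcerebral and 3.93 FPKM in corticothalamic neurons, and Foxo1, a forkhead factor downstream of insulin signalling, at 4.82 and 0.213 FPKM. Tle3 and Tle4 are paralogs and stood on opposite sides. Tbr1, the T-box factor of layer 6, stood at 29.2 FPKM in subcerebral and 195 FPKM in corticothalamic neurons, a 6.68-fold difference. Nfia, a nuclear factor I protein, stood at 6.46 and 51.5 FPKM, and Zfpm2, a GATA cofactor, at 3.35 and 32 FPKM. Of the callosal neuron genes 23 of 24 were compared, 2 were higher in subcerebral neurons and 6 lower. Pou3f2 stood at 27.6 FPKM in subcerebral, 6.68 FPKM in corticothalamic and 36.8 FPKM in callosal neurons, and Lpl, lipoprotein lipase, at 3.97, 38.3 and 67.7 FPKM.

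**Figure D3:**
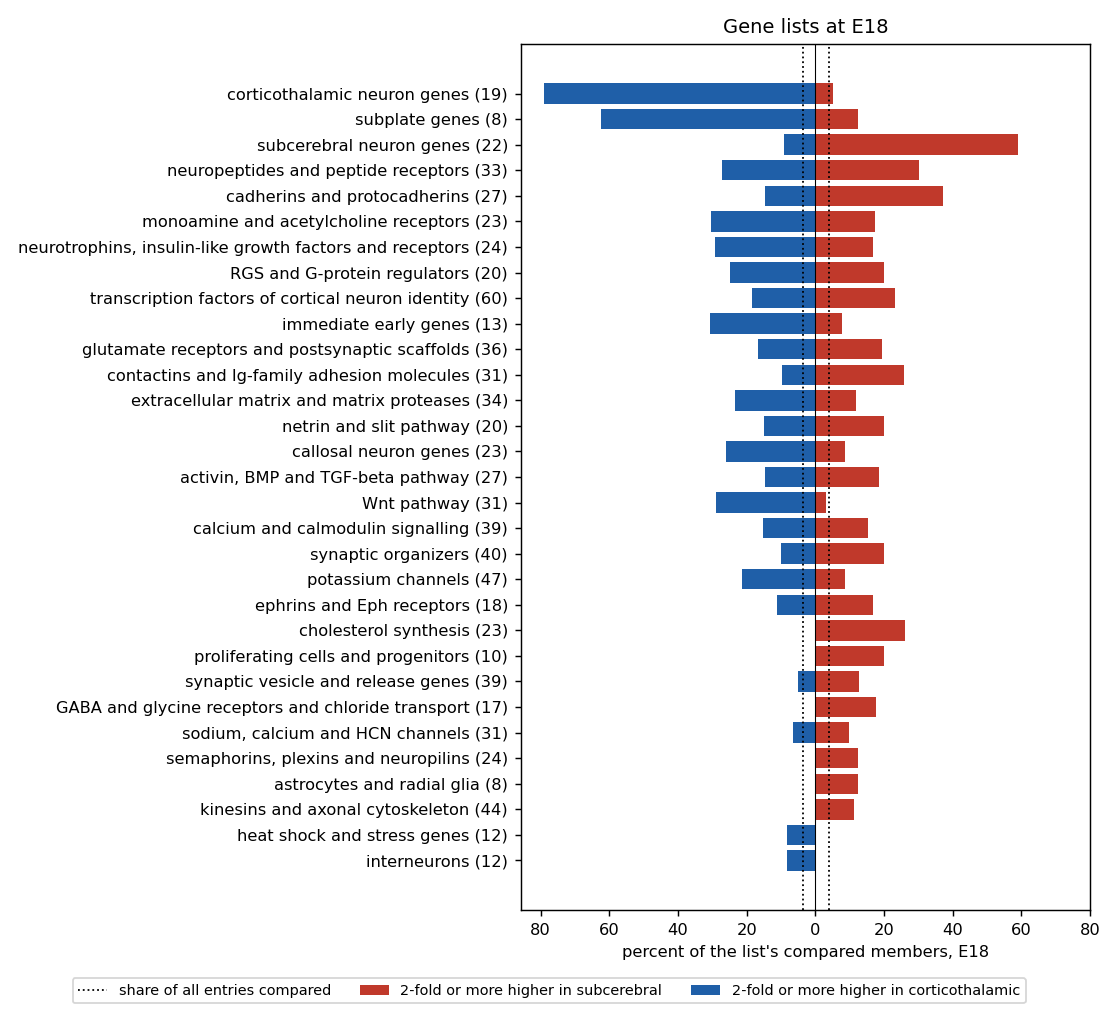
For each gene list with 8 or more members compared, bars give the percent of those members 2-fold or more higher in subcerebral (red, to the right) or in corticothalamic neurons (blue, to the left) at E18, with the number compared in brackets. Dotted lines mark the shares over all entries, 3.88% and 3.5%; the bars of semaphorins, GABA receptors, cytoskeleton and cholesterol synthesis are among those on the subcerebral side only.

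The gene lists were assembled with earlier results of these data known, and they hold genes chosen for neurons, so a share above the background is a description of the list. Members are named from both ends of each list, so related genes on opposite sides follow in part from that choice. Related genes on the same side were not counted. Of 25 netrin and slit pathway genes 20 were compared, 4 were higher and 3 lower. Among the receptors, Robo1, which binds slits, stood at 52.2 FPKM in subcerebral and 15 FPKM in corticothalamic neurons, and Neo1, which binds netrins and repulsive guidance molecules, at 62.1 and 19.5 FPKM. Dcc, the netrin receptor, stood lower in subcerebral neurons at 0.790 against 3.93 FPKM. Among the ligands, Slit1 (15.8 and 42.0 FPKM) and Ntn4 (0.365 and 4.28 FPKM) were also lower, while Ntng1, a membrane-anchored netrin relative, stood at 7.37 and 0.171 FPKM. Thus the netrin receptors Neo1 and Dcc lay on opposite sides at E18.

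Of 29 semaphorins, plexins and neuropilins 24 were compared, 3 were higher in subcerebral neurons and none was 2-fold lower. All 3 were secreted ligands of class 3: Sema3c at 10.6 and 2.28 FPKM, Sema3a at 6.28 and 1.56 FPKM, and Sema3e at 6.68 and 1.95 FPKM. The list's median was -0.15, so most members lay on the other side of 0. Of 22 ephrins and Eph receptors 18 were compared, 3 were higher and 2 lower. Epha8 stood at 10.6 FPKM in subcerebral and 1.48 FPKM in corticothalamic neurons, and the ligand Efna5 at 21.1 and 9.50 FPKM. The receptors Epha3 (1.2 and 7.82 FPKM) and Epha4 (8 and 22.8 FPKM) were higher in corticothalamic neurons.

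Of the cell adhesion genes compared, 51.9% of cadherins and protocadherins and 35.5% of contactins and related molecules differed 2-fold, against 7.37% of all entries. Of 33 cadherins and protocadherins 27 were compared, 10 were higher in subcerebral neurons and 4 lower, with a median of 0.32. Cdh8, a classical cadherin, stood at 65.3 FPKM in subcerebral and 4.69 FPKM in corticothalamic neurons (13.9-fold), Cdh7 at 8.65 and 0.555 FPKM, Pcdh8 at 26.8 and 3.58 FPKM, and the giant cadherin Fat3 at 19.2 and 3.00 FPKM. On the corticothalamic side were Cdh9, Pcdh15 (0.928 and 4.55 FPKM), Pcdh9 (11.9 and 28.3 FPKM) and Cdh10 (5.55 and 13.1 FPKM). Of the related cadherins named, Cdh7 and Cdh8 thus lay on the subcerebral side and Cdh9 and Cdh10 on the corticothalamic side. Of 32 contactins and other adhesion molecules of the immunoglobulin family 31 were compared, 8 were higher and 3 lower. Cntn6, Cntn3 (11.6 and 0.631 FPKM) and Cntnap5a (10.3 and 0.196 FPKM) were higher in subcerebral neurons, whereas Cntn2 (TAG-1), a contactin of growing axons, stood at 44.6 FPKM in subcerebral, 239 FPKM in corticothalamic and 159 FPKM in callosal neurons.

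Of 46 synaptic organizers, molecules that bring pre- and postsynaptic membranes together, 40 were compared, 8 were higher and 4 lower. Some of the paralogs named lay on opposite sides. Slitrk3 stood at 21.7 FPKM in subcerebral and 2.48 FPKM in corticothalamic neurons, and Slitrk1 at 5.54 and 25.3 FPKM. Lrrtm1 stood at 51.1 and 15.8 FPKM, and Lrrtm2 at 6.42 and 28.4 FPKM. The sum of the levels over the list was close, 1929 FPKM in subcerebral and 2102 FPKM in corticothalamic neurons.

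Of the Wnt pathway genes that differed 2-fold, most were higher in corticothalamic neurons. Of 44 Wnt pathway genes 31 were compared, 1 was 2-fold or more higher in subcerebral neurons and 9 lower, with a median of -0.41. The split depended on low genes: it was 3 and 9 with a pseudocount of 0.5 and 6 and 11 with 0.1. Among the 19 at 1 FPKM or more in both columns it was 1 and 5. Beside Wnt7b, the ligand Wnt7a stood at 1.69 FPKM in subcerebral and 7.91 FPKM in corticothalamic neurons. The extracellular modulators Sfrp2 (0.727 and 11.3 FPKM) and Dkk3 (3.25 and 19.4 FPKM) were lower too. The 1 gene called higher in subcerebral neurons was Rspo2, an R-spondin that amplifies Wnt signalling, at 18.4 and 2.35 FPKM. Of 43 activin, BMP and TGF-beta pathway genes 27 were compared, 5 were higher and 4 lower. The ligands Gdf10 (1.16 and 27.4 FPKM, 23.5-fold) and Bmp3 (0.0785 and 4.45 FPKM), the antagonist Chrd (5.6 and 13.7 FPKM) and the inhibitory Smad7 (3.50 and 9.99 FPKM) were higher in corticothalamic neurons. The activin antagonist Fst (8.21 and 0.389 FPKM), the receptor Acvr1c (4.79 and 0.505 FPKM) and the transducer Smad3 (6.94 and 2.31 FPKM) were higher in subcerebral neurons.

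Of 35 neurotrophins, insulin-like growth factors and their receptors 24 were compared, 4 were higher and 7 lower. Insulin-like growth factor binding proteins were split: Igfbp5 stood at 9.64 FPKM in subcerebral and 1.96 FPKM in corticothalamic neurons, Igfbp3 at 6.2 and 74.0 FPKM, and Igfbpl1 at 20.8 and 118 FPKM. Irs2, an adaptor of insulin and IGF receptors, stood at 21.4 and 3.19 FPKM. Of 60 extracellular matrix genes and matrix proteases 34 were compared, 4 were higher and 8 lower, with a median of -0.49. The protease Adamts3 stood at 1.32 FPKM in subcerebral and 30.0 FPKM in corticothalamic neurons (22.7-fold), Podn, a small leucine-rich proteoglycan, at 1.73 and 31.2 FPKM (18-fold), and the collagen chain Col5a1 at 0.0686 and 8.14 FPKM. The matrix genes higher in subcerebral neurons were low in level: Postn stood at 3.48 FPKM, Lama3 at 3.55 FPKM, Adamts1 at 2.87 FPKM and Col12a1 at 1.99 FPKM there.

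Peptides and their receptors were split almost evenly. Of 55 such genes 33 were compared, 10 were higher in subcerebral neurons and 9 lower. Adcyap1, which encodes the peptide PACAP, stood at 41.7 FPKM in subcerebral and 2.55 FPKM in corticothalamic neurons (16.4-fold). Sstr1, a somatostatin receptor, stood at 16 and 1.18 FPKM, and Fam19a2 at 35.6 and 4.05 FPKM. The receptors Mc4r (2.66 and 14.8 FPKM) and Ntsr1, the neurotensin receptor used to mark layer 6 corticothalamic neurons (29.3 and 97.7 FPKM), were lower in subcerebral neurons. Of 38 monoamine and acetylcholine receptor and signalling genes 23 were compared, 4 were higher and 7 lower. Htr2a, a serotonin receptor (8.41 and 2.70 FPKM), Chrna5, a nicotinic subunit (4.50 and 0.797 FPKM), and the muscarinic receptor Chrm1 (6.81 and 2.71 FPKM) were higher in subcerebral neurons. Drd1a, the D1 dopamine receptor, stood at 4.03 and 20.8 FPKM, on the same side as Ppp1r1b, which acts downstream of it.

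Most ion channel genes were within 2-fold, but both lists differed more often than all entries (7.37%). The shares at 2-fold or more were 29.8% of the potassium channels and 16.1% of the sodium, calcium and HCN channels compared. Of 58 potassium channel genes 47 were compared, 4 were higher and 10 lower, with a median of -0.06. Kcnq5, a subunit of M-type channels, stood at 20.7 FPKM in subcerebral and 4.01 FPKM in corticothalamic neurons, and Kcnab1, an auxiliary subunit, at 1.84 and 18.2 FPKM. Kcnk9, a leak channel, stood at 0.145 and 7.46 FPKM. Of 34 sodium, calcium and HCN channel genes 31 were compared, 3 were higher and 2 lower. Scn1a stood at 3.54 and 1.05 FPKM, and the T-type calcium channel Cacna1g at 29.2 and 68.5 FPKM.

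Of 41 glutamate receptor and postsynaptic scaffold genes 36 were compared, 7 were higher and 6 lower. Among the kainate receptor subunits, Grik2 stood at 36.5 FPKM in subcerebral and 6.93 FPKM in corticothalamic neurons, Grik3 at 25.1 and 89.4 FPKM, and Grik4 at 0.414 and 11.1 FPKM. Gria3, an AMPA receptor subunit, stood at 3.20 and 26.2 FPKM, and the metabotropic receptor Grm7 at 16 and 1.56 FPKM (10.2-fold). Of 21 genes of GABA and glycine receptors and chloride transport 17 were compared, 3 were higher and none was 2-fold lower. These were Gabra5 (31.2 and 4.79 FPKM), Gabrd (10.7 and 2.84 FPKM) and the glycine receptor subunit Glra2 (63.8 and 22.9 FPKM). Of 46 synaptic vesicle and release genes 39 were compared, 5 were higher and 2 lower. Syt4 stood at 255 FPKM in subcerebral, 28.3 FPKM in corticothalamic and 288 FPKM in callosal neurons, and Syt6 and Sv2b (8.89 and 27.1 FPKM) were the 2 genes on the corticothalamic side.

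Few cytoskeletal genes differed 2-fold, and those that did were higher in subcerebral neurons. All 44 kinesins and axonal cytoskeleton genes were compared, 5 were 2-fold or more higher and none was 2-fold lower. This share of 11.4% was near the 7.37% of all entries. With 3.5% of all entries 2-fold lower, few of 44 would be, so the absence of lower genes says little. The median difference was 0.40, or 0.20 after quantile normalization. Neurofilament light chain, Nefl, stood at 75.3 FPKM in subcerebral, 5.05 FPKM in corticothalamic and 5.92 FPKM in callosal neurons (14.9-fold). Neurofilament medium chain, Nefm, stood at 67.4, 10.6 and 13.3 FPKM. Mtap1b, a microtubule-associated protein of growing axons, stood at 456 FPKM in subcerebral and 185 FPKM in corticothalamic neurons, and the neuronal tubulin Tubb3 at 2619 and 1094 FPKM. Summed over the list the level was 27420 FPKM in subcerebral and 16205 FPKM in corticothalamic neurons. Cholesterol synthesis genes showed the same side. All 23 were compared, 6 were higher, none was 2-fold lower, and the median was 0.73. Mvd, a decarboxylase of the mevalonate pathway, stood at 65.0 FPKM in subcerebral, 20.3 FPKM in corticothalamic and 39.0 FPKM in callosal neurons, and Fdps, which makes farnesyl diphosphate, at 234, 110 and 156 FPKM.

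Genes that mark other cells were measured beside these groups, and their part in the differences was not tested. Fewer cells of a type and less RNA per cell cannot be told apart in such sorted bulk samples. The summed level of 19 interneuron markers, 12 of them compared, was 168 FPKM in subcerebral and 540 FPKM in corticothalamic neurons, of which Npy alone gave 150 and 517 FPKM. The median difference of the 12 was -0.29, and -0.62 for the 7 at 1 FPKM or more in both columns. Of the 12 none was 2-fold higher and 1, Npy, was 2-fold lower in subcerebral neurons (8.33%, against 7.37% of all entries). With a pseudocount of 5 the median was -0.10, so no direction is given for the list beyond Npy. Gad1 (2.31 and 1.71 FPKM) and Gad2 (1.28 and 0.694 FPKM), named after their values were seen, were low in both columns. Both leaned to subcerebral neurons. Of 13 subplate genes 8 were compared, 1 was higher in subcerebral neurons (Pls3, 33.0 and 15.9 FPKM) and 5 lower, among them Nr4a2 (1.01 and 7.20 FPKM), Ctgf (0.175 and 4.38 FPKM), Kcnab1 and Nxph4. The summed level of the subplate list was 54.1 FPKM in subcerebral and 121 FPKM in corticothalamic neurons. Of these sums Nxph4 alone gave 2.59 and 54.0 FPKM, and Pls3, on the other side, 33.0 and 15.9 FPKM. Nxph4 and Cdh18 are also in the list of corticothalamic neuron genes. Nr4a2 was higher in callosal neurons, at 37.3 FPKM, than in either subtype compared. Of 8 Cajal-Retzius markers 1 was compared, Reln, at 25.5 and 7.56 FPKM, and the other 7 were below 1 FPKM in both columns. Sums for astrocytes and radial glia were 147 and 119 FPKM (Ptprz1 alone 81.5 and 34.9 FPKM), for oligodendrocytes 20.2 and 15.1 FPKM, for microglia 5.73 and 7.89 FPKM, for vascular and meningeal cells 15.4 and 11.7 FPKM, for red blood cells 9.31 and 7.65 FPKM, and for proliferating cells 79.8 and 82.9 FPKM. Of the thalamic neuron markers only Prkcd (73.4 and 35.5 FPKM) was compared, the other 7 being below 1 FPKM in both columns.

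The same pair of subtypes was next set side by side at the other stages, which share no column with E18. The share of compared entries that differed 2-fold was 3.23% at E15, 5.35% at E16, 7.37% at E18 and 9.1% at P1, and the SD of the difference over entries was 0.41, 0.53, 0.62 and 0.68. Of the 516 entries higher in subcerebral neurons at E18, 65 (12.6%) were 2-fold or more higher at E15, 240 (46.5%) at E16 and 404 (78.3%) at P1, against backgrounds of 1.07%, 2.41% and 4.87%. Of the 465 lower at E18, 107 (23.0%) were 2-fold or more lower at E15, 261 (56.1%) at E16 and 353 (75.9%) at P1, against 2.16%, 2.94% and 4.22%. The median difference of the 516 entries was 0.08 at E15, 0.95 at E16, 1.4 at E18 and 1.49 at P1. That of the 465 was -0.48, -1.14, -1.42 and -1.38. At E15 most of the subcerebral side was therefore within 2-fold, and 347 of the 516 entries (67.2%) were 2-fold at P1 but not at E15. Only 49 (9.5%) of the 516 and 81 (17.4%) of the 465 were 2-fold in the same direction at all of E15, E16 and P1, and 64 and 65 were so at none of them. Across the 13302 entries the E18 difference correlated with that at E15 (Pearson 0.37, Spearman 0.31), E16 (0.82 and 0.80) and P1 (0.87 and 0.85). This is a description across genes, which are not independent and share the libraries of each column.

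**Figure D4:**
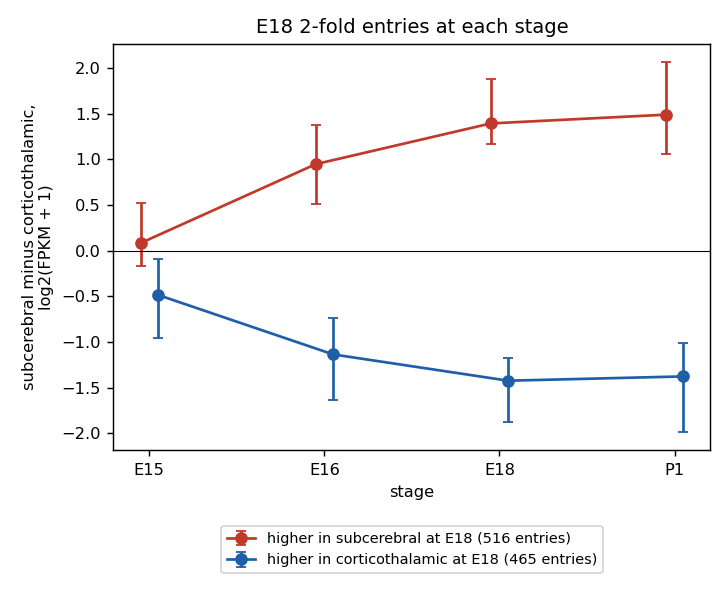
Median difference, subcerebral minus corticothalamic in log2(FPKM + 1), at each stage for the 516 entries higher (red) and the 465 lower (blue) in subcerebral neurons at E18; bars span the lower to upper quartile over entries. The red median lies at 0.08 at E15 and 1.49 at P1, and the blue median at -0.48 and -1.38; the E18 points are set by how the entries were chosen.

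The difference was tested over E15, E16 and P1, leaving E18 out, with limma on log2(FPKM + 1) in 9 columns, the callosal ones included, with stage and subtype as additive terms. The residual of that fit, with 4 degrees of freedom, is how far the differences between the 3 subtypes varied between stages, and not the spread between libraries. Of 13739 entries tested 259 passed an adjusted p of 0.05 (1.89%), 109 higher in subcerebral neurons (0.793%) and 150 lower (1.09%). Of the 516 entries higher at E18, 484 were tested and 54 passed as higher (11.2%). Of the 465 lower, 447 were tested and 100 passed as lower (22.4%). No entry of either set passed in the opposite direction. Of 12150 tested entries that were compared at E18 and fell in neither set, 55 passed as higher (0.453%) and 47 as lower (0.387%). The calls rest on the stages used: 1031 passed without E15 (219 of them among the 259), 25 without P1 (21 among the 259), and only Whrn and Wscd1 without E16. The balance of directions turned as well, with 562 higher and 469 lower without E15, and 15 and 10 without P1. In the 6 columns of the 2 subtypes alone 124 passed.

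Whrn had the smallest adjusted p. It stood at 4.20, 2.67, 4.22 and 3.44 FPKM in subcerebral neurons at E15, E16, E18 and P1 and at 41.0, 34.2, 50.1 and 46.0 FPKM in corticothalamic neurons. Its estimate over E15, E16 and P1 was -3.23 ± 0.10 (SE, limma adjusted p = 0.000176). At those 3 stages the 2 ranges did not overlap, and how many of all entries had such ranges was not counted. Wscd1 had an estimate of -3.49 ± 0.22 (adjusted p = 0.00823), Tmem132b of -3.61 ± 0.46 (adjusted p = 0.0249), Tle4 of -2.91 ± 0.44 (adjusted p = 0.0381) and Ngfr of -4.06 ± 0.63 (adjusted p = 0.0385), all lower in subcerebral neurons at every stage. Among other corticothalamic-side genes described above, Gdf10 (-3.03 ± 0.40, adjusted p = 0.0289), Bmp3 (-1.74 ± 0.22, adjusted p = 0.0237), Smad7 (-1.30 ± 0.15, adjusted p = 0.0217), Wnt7a (-1.31 ± 0.20, adjusted p = 0.0348), Sfrp2 (-1.94 ± 0.29, adjusted p = 0.036) and Drd1a (-2.66 ± 0.26, adjusted p = 0.0217) passed. Of 30 Wnt list members tested 4 passed as lower and 0 as higher, of 52 potassium channels 5 and 1, and of 19 corticothalamic list genes 9 and 0. Over all entries tested 1.09% passed as lower and 0.793% as higher. The lists were chosen with earlier results of these data known, so these counts describe the lists.

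On the subcerebral side Bhlhe22 stood at 127, 267, 291 and 168 FPKM in subcerebral neurons over the stages and at 12.9, 16.4, 18.2 and 6.18 FPKM in corticothalamic neurons. Its estimate was 3.90 ± 0.29 (limma adjusted p = 0.00938). At E15, E16 and P1 the 2 ranges did not overlap, which describes the values behind the estimate. How many of all entries had such ranges was not counted. Tle3 had an estimate of 2.71 ± 0.14 (adjusted p = 0.00265), Siah3 of 3.12 ± 0.31 (adjusted p = 0.0217), Kcnq5 of 2.05 ± 0.19 (adjusted p = 0.017), Pcdh8 of 2.61 ± 0.25 (adjusted p = 0.0217), Robo1 of 2.01 ± 0.26 (adjusted p = 0.0282) and Glra2 of 1.70 ± 0.26 (adjusted p = 0.0382). Bcl11b did not pass: it stood at 168, 124, 110 and 104 FPKM in subcerebral and 97.1, 68.0, 36.7 and 32.1 FPKM in corticothalamic neurons, and its estimate was 1.10 ± 0.33 (adjusted p = 0.123). It was higher in subcerebral neurons at each of the 4 stages. None of the 23 cholesterol synthesis and 44 cytoskeleton genes tested passed, although Nefl had an estimate of 1.97 ± 0.69 (limma adjusted p = 0.154).

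Several of the largest E18 differences were not present at E15. Tcerg1l stood at 0.343, 81.3, 165 and 166 FPKM in subcerebral neurons over the 4 stages and never above 1.28 FPKM in corticothalamic neurons. Fam19a1 was listed at 0 in both subtypes at E15 and stood at 21.2 FPKM in subcerebral neurons at E16 and 56.7 FPKM at P1. Neither passed over E15, E16 and P1 (limma adjusted p = 0.126 and 0.141), and both passed without E15 (adjusted p = 0.0178 and 0.0425). Nefl stood at 1.65, 18.2, 75.3 and 124 FPKM in subcerebral neurons against 0.640, 4.42, 5.05 and 10.8 FPKM in corticothalamic neurons. On the other side, Syt6 was alike at E15 (25.8 and 28.5 FPKM), and then stood at 5.02, 1.86 and 1.2 FPKM in subcerebral and 60.5, 78.7 and 90.9 FPKM in corticothalamic neurons. Wnt7b in subcerebral neurons stood at 154, 32.6, 8.46 and 4.18 FPKM, against 300.0, 217, 221 and 168 FPKM in corticothalamic neurons. Tbr1 went from 223 and 315 FPKM in the 2 subtypes at E15 to 15.7 and 156 FPKM at P1. In these 3 genes the subcerebral level was lowest at P1.

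**Figure D5:**
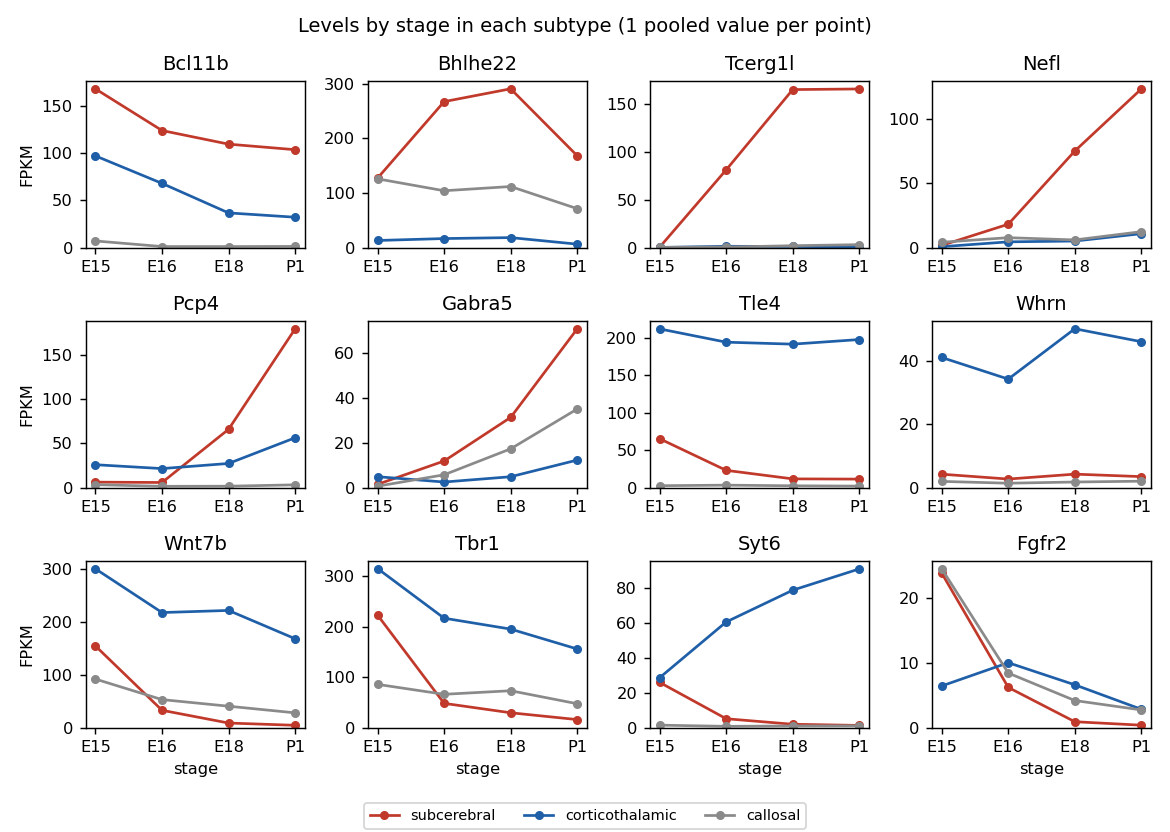
FPKM on the y axis against stage for 12 genes, 1 pooled value per point, in subcerebral (red), corticothalamic (blue) and callosal (grey) neurons; each panel has its own y scale starting at 0. Whrn and Tle4 lie apart at every stage, Tcerg1l and Nefl separate after E15, and Pcp4, Gabra5 and Fgfr2 cross between E15 and E18.

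Whether the E18 difference departed from that of the other stages was tested in a second limma fit on all 12 columns. Of 13946 entries 0 passed (0% of those tested), and no other tool was run. An unadjusted p under 0.05 was seen for 84, fewer than evenly spread p-values would give. The residual of this fit holds the change of the subtype differences from E15 to P1, so only large departures could be called. That 0 passed does not show that E18 was like the other stages. The 3 largest estimates in each direction, none of them called, all belonged to short RNA entries. Of 25 entries for microRNAs and small nucleolar RNAs that were compared at E18, 11 were 2-fold or more higher and 7 lower (72%), and 11 were listed at 0 in one of the columns. Mir3102 was listed at 562 FPKM in subcerebral neurons at E18 and at 0 in the other 11 columns. The libraries were poly(A)-selected and short transcripts have a small divisor in FPKM, so these entries are given apart. Entries named only by a locus number (XLOC) made up 867 of those compared, of which 44 were higher and 33 lower.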

How the data were processed

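The authors deposited a single table of 32310 entries by 12 columns, 1 per stage and subtype, each pooling the 2 libraries that the labels list for that group. TopHat2, Cufflinks and the build mm9 are named per the submitters' processing notes; how libraries were combined and scaled is not given in the sources used here. Without a unit in the header, the deposited values were read as FPKM from the tools and the values; read depth is unknown and no counting interval is given. Libraries were poly(A)-selected, per the labels' protocols.

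Entries at 1 FPKM or more in either E18 column were compared as log2(FPKM + 1) differences, with 2-fold (1 on this scale) as the call and no test. Differences at E15, E16 and P1, and the departure of E18 from them, were tested with limma 3.58.1 (trend and robust, R 4.3.3). Benjamini-Hochberg adjustment ran over entries at 1 FPKM or more in 2 columns. The script was tested on simulated data with planted differences and noise. Apart from the planted ones, subtype differences there did not change between stages, so that test does not give the power in these data. Named genes are the 15 largest E18 differences in each direction, 4 markers, up to 4 members per direction of each list, and the 3 largest departures per direction; others are named as chosen later. The members and the 37 lists (1087 of 1091 genes matched) were chosen with earlier results of these data known. Motif windows come from RefSeq promoters. Pseudocounts, filters, scaling and left-out stages were varied.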

Additional observations from a re-analysis of the deposited data

Results flagged for a closer look

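Among the 188 named genes, 13 had an E18 difference, subcerebral minus corticothalamic in log2(FPKM + 1), of 2-fold or more and a difference of 2-fold or more with the opposite sign at another stage; with 1 pooled value per column this reversal was not tested for any single stage. Over all entries, 17 of the 516 higher at E18 were 2-fold or more lower at E15, 3 at E16 and 1 at P1, and 7, 0 and 2 of the 465 lower at E18 were 2-fold or more higher at those stages. Of the 13 named, 9 are protein-coding. Lmo3, a LIM-only transcription cofactor, was at -1.31 at E15 and 1.88 at E18. Rspo2 was at -1.08 and 2.53, Gabra5 at -1.27 and 2.47, Igfbp5 at -1.11 and 1.85, Htr2a at -1.05 and 1.35, Cacna2d3, an auxiliary calcium channel subunit, at -1.30 and 1.2, and Pls3 at -2.74 and 1.01, each lower in subcerebral neurons at E15 and higher at E18. Fgfr2, a fibroblast growth factor receptor, went the other way, with 1.74 at E15 and -2.0 at E18. Pcp4, a calmodulin-binding peptide used as a marker of deep-layer neurons, was at -1.92 at E15, -1.75 at E16 and 1.25 at E18: its level in subcerebral neurons was 6.09, 5.69, 65.9 and 179.6 FPKM over the 4 stages, against 25.8, 21.4, 27.2 and 56.3 FPKM in corticothalamic neurons.

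The other 4 are short RNA entries. Snora16a was at 4.75 at E18 and -1.39 at P1, Snora44 at -5.56 at E18 with 1.28 at E15 and 5.90 at P1, Snora7a at 2.90 at E18 and -4.02 at E15, and Mir486 at -3.14 at E18 and 3.37 at P1. Each was listed at 0 in at least 1 of the columns compared.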

How the results depend on the processing

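No paired analysis was possible because the table holds 1 pooled column per group, and for the same reason no library could be left out at E18. The number of entries higher in subcerebral neurons at E18 was 516 and became 233 with a pseudocount of 5; the number lower was 465 and became 726 with a pseudocount of 0.1, 195 with a pseudocount of 5 and 309 when 1 FPKM was asked of both columns. The other filters, both scalings and leaving out XLOC or short RNA entries (the latter chosen after seeing the data) moved either count by less than 1.5 times. Over E15, E16 and P1, 109 entries passed as higher and 150 as lower. These became 7 and 9 with no filter, and 56 and 68 in the 6 columns of the 2 subtypes alone; leaving out 1 stage in turn gave 0 to 562 higher and 2 to 469 lower. Of the 32 named genes that passed, 31 passed without E15, 2 without E16 and 4 without P1. The departure of E18 gave 11 higher and 1 lower with no filter, where more entries near 0 enter, and 0 under the other alternatives. In the fit over E15, E16 and P1 the balance of calls turned without E15 or P1. Of its calls 42.1% were higher as reported, 54.5% without E15 and 60% without P1. Pseudocounts, filters and left-out entries cannot change the sign of an E18 difference. Under both scalings none of the 188 named genes changed sign. Filters and left-out entries also leave the size of a difference as it is, and smaller pseudocounts only enlarge it. Of the 188 named genes, 161 stayed with the filter at 5 FPKM and 130 with 1 FPKM or more in both columns. With a pseudocount of 5, 127 kept their side of 2-fold and 61 dropped below it. Quantile normalization gave 183 and 5, and all 188 kept their side with median-ratio scaling. The cause of these shifts was not tested. The medians of the synaptic organizers, the sodium, calcium and HCN channels and the monoamine list change sign with the scaling, so no direction is given for them.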

Other observations

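Regulators of G-protein signalling were split between the subtypes at E18. Of 21 genes 20 were compared, 4 were 2-fold or more higher in subcerebral neurons and 5 lower (45% together, against 7.37% of all entries). Rgs11 stood at 46.0 FPKM in subcerebral and 12.4 FPKM in corticothalamic neurons, Rgs3 at 13 and 1.97 FPKM, Rgs16 at 6.04 and 35.5 FPKM and Rgs8 at 6.52 and 24.4 FPKM. Over E15, E16 and P1 Rgs8 (-2.11 ± 0.33, limma adjusted p = 0.0385) and Rgs9 (-0.97 ± 0.17, adjusted p = 0.0479) passed, both lower in subcerebral neurons. Of 45 genes of calcium and calmodulin signalling 39 were compared, 6 were higher and 6 lower (30.8% together). Of the protein kinase C isoforms named, Prkca stood at 6.28 FPKM in subcerebral and 1.93 FPKM in corticothalamic neurons. Prkcb lay on the other side, at 4.36 and 20 FPKM. The calcium sensor Hpca stood at 16.4 and 46.1 FPKM.

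Immediate early genes, induced by activity and by handling of tissue, had a median difference of -0.64 over the 13 of 18 that were compared. Of these 1 was higher in subcerebral neurons (Egr3, 1.86 and 0.193 FPKM) and 4 lower: Dusp6 (11.8 and 34.7 FPKM), Btg2 (0.663 and 3.14 FPKM), Junb (2.23 and 6.03 FPKM) and Ier2 (6.37 and 15 FPKM). Of 16 heat shock and stress genes 12 were compared, none was higher and 1 was lower, Gadd45a (0.397 and 4.30 FPKM). Among the 11 stress genes at 1 FPKM or more in both columns none differed 2-fold. The shares at 2-fold were 38.5% of the immediate early and 8.33% of the stress genes compared, against 7.37% of all entries.

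Some genes are listed under more than 1 name. The entry GluR alpha3 stood at 3.43 FPKM in subcerebral and 30.1 FPKM in corticothalamic neurons beside 3.20 and 26.2 FPKM for Gria3.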
